A study of Mus musculus with 2 samples.

Results

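The 9 haem and iron handling genes described here are Cd163, Hmox1, Blvrb, Fth1, Ftl1, Slc40a1, Slc11a1, Tfrc and Trf, 9 of the 27998 genes in the count matrices. They were chosen by name for their roles, with earlier results of these data known. Their counts were summed per deposited cell type label and day, mainly over the 6 labels that name a monocyte or macrophage. The data are 2 single-cell RNA libraries of dissociated tibialis anterior muscle from C57Bl/6 mice (C57BL/6J in the study's methods), 1 library from 1 mouse at 2 days after notexin injection and 1 at 7 days. Notexin is a snake venom phospholipase that destroys muscle fibres, and both groups carry this injury, so no uninjured muscle enters the values. The sample labels give female mice of 7 months, whereas the annotation tables give males, aged 4 months at day 2 and 7 months at day 7. The libraries held 6575 and 4856 counts of 4 Y-linked genes against 5 and 1 counts of Xist, which goes against the female label in both. Age, as the tables give it, therefore cannot be told apart from day.

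Macrophages that clear damaged muscle and red cells take up haem iron and recycle it. CD163 takes up haemoglobin bound to haptoglobin, haem oxygenase 1 (Hmox1) opens the haem ring to biliverdin and frees the iron, and biliverdin reductase B (Blvrb) reduces biliverdin and flavins. Freed iron is stored in ferritin, a shell of heavy (Fth1) and light (Ftl1) chains, or leaves the cell through ferroportin (Slc40a1). NRAMP1 (Slc11a1) moves metal ions out of the phagosome, the transferrin receptor (Tfrc) takes up iron-loaded transferrin, and Trf encodes transferrin itself.

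Several of these transcripts carry iron-responsive elements, short hairpins bound by the iron regulatory proteins when cells are short of iron. Near the 5′ end of a transcript such a hairpin is known to block translation, and in the 3′ UTR to protect the transcript, so transcript counts of ferritin and ferroportin do not report their protein levels. The elements found in the GENCODE vM21 transcripts (GRCm38) are shown because they differ in place among the 4 members that hold one. Each line is a 29-base window with the 6-base loop in capitals.
Fth1, 5′ UTR: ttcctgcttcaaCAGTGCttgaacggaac
Ftl1, 5′ UTR: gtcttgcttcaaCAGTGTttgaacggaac
Slc40a1, 5′ UTR: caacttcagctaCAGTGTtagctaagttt
Tfrc, 3′ UTR: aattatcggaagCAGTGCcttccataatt
Tfrc, 3′ UTR: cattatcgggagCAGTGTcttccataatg
Tfrc, 3′ UTR: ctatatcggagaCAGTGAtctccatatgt
Tfrc, 3′ UTR: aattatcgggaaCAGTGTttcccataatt

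The search asked for a bulged C, 5 bases, CAGTG with A, C or T after it, and 5 bases that pair with the first 5, with at most 1 G-U pair. Of 21877 protein-coding genes, 11 (0.0503%) held a match in a 5′ UTR and 38 (0.174%) in a 3′ UTR. Among the members, Fth1, Ftl1 and Slc40a1 held one in the 5′ UTR and Tfrc held 4 in the 3′ UTR. A match is a description of the letters and not a measured site. In GRCm38 the windows are at chr19:9982732-9982760 (+, exon 1) for Fth1, chr7:45459779-45459807 (−, exon 1) for Ftl1 and chr1:45925465-45925493 (−, exon 1) for Slc40a1. The 4 in Tfrc are in exon 19, at chr16:32631219-32631247, chr16:32631598-32631626, chr16:32631663-32631691 and chr16:32631710-32631738 on the plus strand. The other members are on chromosome 6 (Cd163, 124304656 to 124330527), 7 (Blvrb, 27447978 to 27466144), 8 (Hmox1, 75093621 to 75100589), 1 (Slc11a1, 74375195 to 74386062) and 9 (Trf, 103204001 to 103230444).

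The libraries held 41123913 counts in 4836 called barcodes at day 2 and 32356088 counts in 4889 at day 7. After filtering, 3178 and 3196 labelled cells were kept, and 4 called barcodes occurred in both libraries. The monocyte and macrophage labels held 1292 cells with 16485355 counts at day 2 and 757 cells with 7519919 counts at day 7. All 13 macrophage markers were detected in each of the 6 labels on both days, but their levels differed between the days. Their sum went from 8274 to 19147 CPM in the pooled cells, with C1qa going from 692 to 5161 CPM, Mrc1 from 831 to 136 CPM and Cd14 from 2224 to 531 CPM. The same label thus holds cells of unlike marker levels at day 2 and day 7, and the part of this in the ratios was not tested. Within those labels the summed level of the 6 erythroid genes went from 88.5 to 4.92 CPM, that of the 5 myofibre genes from 10.7 to 456 CPM and that of the 5 FAP genes from 19.4 to 178 CPM. The genes that led the Patrolling monocyte label at day 2 were Syngr1, Spp1, Gpnmb, F7 and Mmp12, with Cx3cr1 at 10.8 CPM at day 2 and 200 CPM at day 7, and those that led the M1 label included Retnla and Chil3, genes known for alternative activation, with Mrc1 at 806 CPM. All 6 labels are therefore used as names only. The labels were made from all genes, so differences between labels are given as descriptions.

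Levels are counts per 1000000 summed counts of a label (CPM), with exact 95% Poisson intervals, and ratios have exact conditional binomial intervals. With 1 library a day there is no replicate error and no test, and every interval covers counting error only. Ferritin genes have many near-identical copies in the genome, and how multiply mapping reads were split is not given in the sources used here, so Fth1 and Ftl1 levels are uncertain. Ambient level means the CPM of a gene in barcodes with at most 100 counts, which hold free RNA.

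In the pooled monocytes and macrophages, Cd163, Hmox1 and Tfrc were at least 2-fold lower at day 7, Slc40a1 and Trf were at least 2-fold higher, and ferritin levels were nearly equal. All 9 members had at least 20 counts over both libraries, Slc40a1 only through day 7, where it was higher (3 counts at day 2 and 38 at day 7). The 2 members that were higher compare with 19.3% of 11318 genes that were at least 2-fold higher, and the 3 that were lower with 12.8% that were at least 2-fold lower. With a minimum of 100 counts, Trf alone was higher, beside 12.8% of 8847 genes, and the same 3 members were lower, beside 13.6%. The median log2 ratio was 0.05 over the members and -0.02 over all genes, and the scaling by median of ratios lowers every log2 ratio by 0.13. Counted per cell in place of per 1000000 counts, the same 5 members passed, against 13.8% of genes higher and 23.6% lower. In summed values, fewer expressing cells and less RNA per cell cannot be told apart, and shares of cells are given where counts are low.

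**Figure D1:**
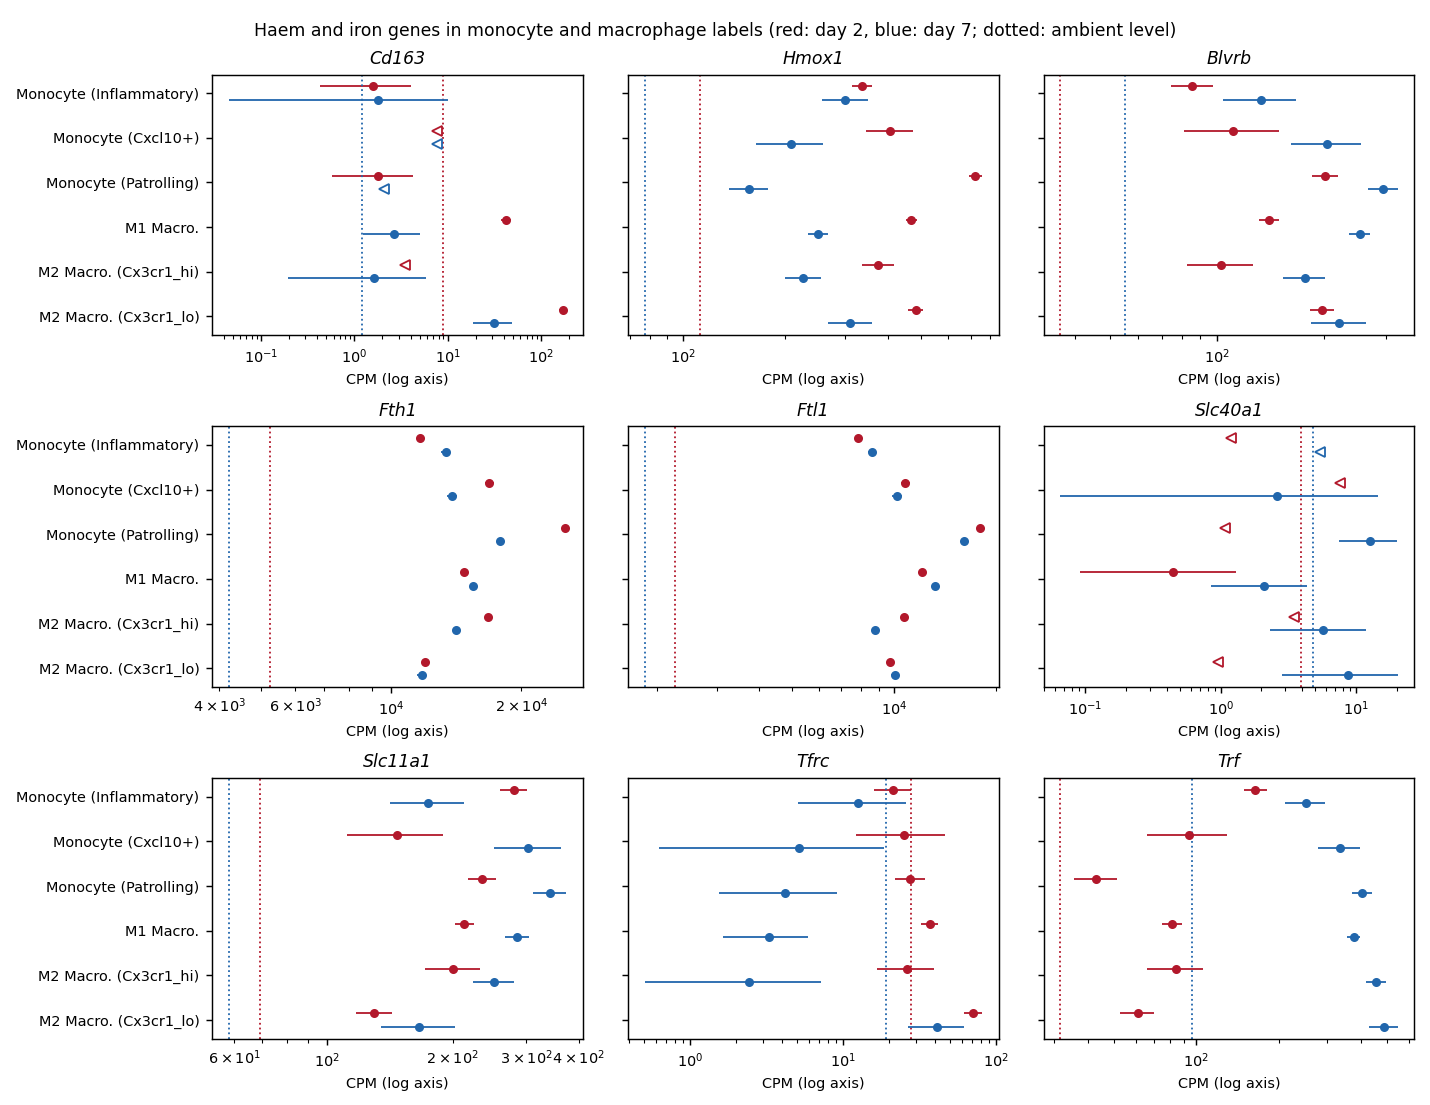
CPM of the 9 members (log x axes) in the 6 monocyte and macrophage labels at day 2 (red) and day 7 (blue), with 95% Poisson intervals; open triangles mark labels with no count, drawn at the level of 3 counts, and dotted lines the ambient level. Trf lies right of its day 2 value in every label, while Tfrc lies left of it and Fth1 and Ftl1 stay between 7820 and 25180 CPM.

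The haem uptake receptor gene was high in a minority of day 2 macrophages and scarce at day 7. Cd163 summed to 829 counts at day 2 (50.3 CPM) and 30 at day 7 (3.99 CPM), 12.6-fold lower (95% interval 8.76 to 18.8), or -3.66 on the log2 scale. The mean over cells of each cell's CPM gave -1.94 and the labels weighted equally -2.53. The ambient level went from 8.84 to 1.21 CPM.

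At day 2, Cd163 was concentrated in the Cx3cr1_lo M2 macrophages at 170 CPM (156 to 185), where it was the leading gene of the label. M1 macrophages followed at 42.1 CPM, 4.03-fold lower. The Patrolling and Inflammatory monocyte labels held 5 and 4 counts (1.80 and 1.59 CPM), below the ambient level. The Cx3cr1_hi M2 macrophages and the Cxcl10+ monocytes held 0 counts, where 3 counts would have been 3.46 and 7.60 CPM. At day 7 the Cx3cr1_lo label still had the highest level, 31.2 CPM (18.5 to 49.2), and M1 macrophages were at 2.69 CPM. The Cx3cr1_lo label was thus 5.45-fold lower (3.41 to 9.26) and the M1 label 15.6-fold lower (8.11 to 34.5). As the mean of the CPM of single cells, the Cx3cr1_lo label was at 152 CPM at day 2 and 62.1 CPM at day 7, and the M1 label at 32.9 and 4.07 CPM, which are smaller differences.

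A few cells held much of the Cd163 count. In the day 2 Cx3cr1_lo label, 83 of 242 cells had a UMI, 52 had 2 or more, and the 10 highest cells held 46.7% of the 535 counts. In the M1 label, 59 of 468 cells had a UMI and the 10 highest held 61.1% of 285 counts. At day 7, 9 of 105 Cx3cr1_lo cells and 8 of 228 M1 cells had a UMI, with at most 4 counts in a cell. After thinning each cell to 2000 UMIs, the share of all monocytes and macrophages with a Cd163 UMI was 4.65% at day 2 (60 of 1290, 3.57 to 5.95) and 1.20% at day 7 (9 of 753, 0.548 to 2.26). Unthinned shares were 11.7% and 2.64%, at median depths of 11696 and 8546 counts. FAPs, which should lack the gene, had no UMI in 213 thinned day 2 cells, with an exact upper 95% limit of 1.72% on the share of cells with a UMI and a median depth of 24329 counts. In dendritic cells, 6 of 170 had a Cd163 UMI at day 2 (3.26 CPM, 1.31 to 6.72) and 10 of 145 at day 7 (9.62 CPM, 4.61 to 17.7), a higher value with overlapping intervals, or 1 of 170 and 2 of 144 after thinning.

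The Cd163-bearing cells differed from their neighbours within a label. In day 2 M1 macrophages, the 27 cells with 2 or more Cd163 UMIs had 97.0 CPM of Slc11a1 against 230 CPM in the 409 cells with none, a ratio of 0.421 (0.312 to 0.557). The ratio in Cx3cr1_lo macrophages was 0.642 (0.491 to 0.830). Blvrb was higher in the Cd163-bearing cells of both labels, 1.46-fold in M1 and 1.25-fold in Cx3cr1_lo macrophages. Hmox1 was lower in those of the Cx3cr1_lo label, at a ratio of 0.819 (0.722 to 0.928), and was at 0.960 (0.831 to 1.10) in the M1 label. Fth1 was lower in both, at ratios of 0.814 and 0.847, and Tfrc was 1.90-fold higher in the M1 label (1.28 to 2.74) and at 1.29 in the Cx3cr1_lo label, with an interval that includes 1 (0.945 to 1.74). The Cd163-bearing cells were deeper, with medians of 18714 against 13303 counts in the M1 label, and the part of depth in these ratios was not tested. This comparison was chosen after the data were seen.

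Among the 6 monocyte and macrophage labels, erythroid transcripts stood out in 1, the one with the highest Cd163 level. The summed erythroid list was at 421 CPM in the day 2 Cx3cr1_lo label and between 7.92 and 20.3 CPM in the other 5, and none of the 6 passed 8.65 CPM at day 7. Its 4 globin genes were at 787 CPM in free RNA at day 2 and 304 CPM at day 7. M1 macrophages, the next label for Cd163, had 10.2 CPM of the list. Among the other labels with at least 20 cells, the day 2 list passed 421 CPM only in muscle stem cells (27929 CPM), Endothelial (Capillary) cells (3056 CPM), neutrophils (1150 CPM) and smooth muscle cells (1052 CPM). These held no Cd163 count, except for 1 in the Endothelial (Capillary) label. Without any cell that held an erythroid count, an alternative chosen after the data were seen, the pooled log2 ratio was -3.39 for Cd163 and -1.05 for Hmox1, and that of Ftl1 moved outside its interval, to 0.04. The part of red cell RNA in these results was not tested further.

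Of the haem breakdown genes, Hmox1 was lower and Blvrb higher at day 7. Hmox1 was at 488 CPM at day 2 (8039 counts) and 234 CPM at day 7 (1762 counts), 2.08-fold lower (1.98 to 2.19), with ambient levels of 112 and 77.3 CPM. Blvrb was at 151 CPM (2485 counts) and 234 CPM (1762 counts), 1.55-fold higher (1.46 to 1.65). The Hmox1 ratio stood close to the threshold: with the labels weighted equally its log2 value was -0.95 and as the mean over cells -0.77, both under 2-fold.

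The Patrolling monocyte label had the largest difference in Hmox1. It held the highest level at day 2, 722 CPM (691 to 754), which was 1.49-fold above the next label, and the lowest of the 6 at day 7, 156 CPM (137 to 178). That is 4.62-fold lower (4.02 to 5.32). Below it at day 2 came the Cx3cr1_lo M2 macrophages (484 CPM), M1 macrophages (469 CPM), Cxcl10+ monocytes (405 CPM), Cx3cr1_hi M2 macrophages (375 CPM) and Inflammatory monocytes (337 CPM), and no neighbours among these 5 differed beyond counting error. At day 7 the values ran from 310 CPM in the Cx3cr1_lo label and 300 CPM in the Inflammatory label down through 250 CPM in M1, 226 CPM in Cx3cr1_hi and 207 CPM in Cxcl10+ cells. The Inflammatory label differed least between days, with a log2 ratio of -0.17 (-0.41 to 0.08).

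Over single cells the middle of the Hmox1 distribution also lay lower at day 7. The median cell was at 223 CPM at day 2, with quartiles of 80.5 and 474 CPM, and at 89.2 CPM at day 7, with quartiles of 0 and 285 CPM. Across day 2 cells, Hmox1 was correlated with Ftl1 (Pearson r = 0.55 on log2(CPM + 100), 1292 cells) and with Fth1 (r = 0.49), and across the 757 day 7 cells with r = 0.07 and 0.09. These are descriptions: the values of a cell share its depth, which had r = 0.28 with Hmox1 and 0.45 with Ftl1 at day 2 and 0.01 and 0.46 at day 7.

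Blvrb was higher at day 7 in all 6 labels, without overlap of the intervals in 5 of them. In M1 macrophages it was at 140 CPM at day 2 and 253 CPM at day 7 (1.80-fold, 1.64 to 1.98). Its highest level on both days was in the Patrolling label, 202 and 293 CPM, at day 2 not above the Cx3cr1_lo label beyond counting error. The Cx3cr1_lo M2 macrophages were at 198 and 222 CPM, a log2 ratio of 0.16 (-0.13 to 0.44). Of 4 haem breakdown genes in the wider list, Hmox1 was past 2-fold and 3 were not. Hmox2, the constitutive haem oxygenase, was at 95.9 and 145 CPM, and Blvra, the main biliverdin reductase of adult tissue, at 111 and 94.9 CPM.

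Ferritin made up the same share of the counts on both days. Fth1 was at 15663 CPM at day 2 and 15158 CPM at day 7 (log2 ratio -0.05), and Ftl1 at 11862 and 12298 CPM (0.05). Together they made up 2.75% of all monocyte and macrophage counts on each day. Counted per cell, the log2 ratios were -0.41 and -0.31. The sign for Ftl1 also turned with median-of-ratios scaling (-0.08), with the mean over cells (-0.02) and with labels weighted equally (-0.04).

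Between labels, ferritin was highest in the Patrolling monocytes, which were also highest for Hmox1 at day 2. Fth1 there was at 25180 CPM at day 2 and 17813 CPM at day 7, 1.41-fold lower. Ftl1 was at 17966 and 16106 CPM, 1.12-fold lower. The remaining 5 labels spanned 11669 to 16872 CPM of Fth1 at day 2 and 11776 to 15437 CPM at day 7. The Inflammatory label was 1 of 2 in which Fth1 was higher at day 7, with 11669 and 13360 CPM, and M1 macrophages were the other, with 14747 and 15437 CPM. Cx3cr1_lo M2 macrophages had a log2 ratio for Fth1 of -0.03 (-0.06 to 0.01).

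The spread of Fth1 over cells was narrower at day 7. The 10th and 90th percentiles of the CPM of single cells were 3257 and 30195 at day 2 and 6722 and 23006 at day 7, around medians of 11239 and 13132 CPM. For Ftl1 the percentiles were 4434 and 19521 CPM at day 2 and 4363 and 18303 CPM at day 7.

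The balance of the chains differed by label. The pooled cells had 0.757 Ftl1 counts per Fth1 count at day 2 and 0.811 at day 7. In the Patrolling label the ratio was 0.713 (0.705 to 0.722) and 0.904 (0.888 to 0.920). M1 macrophages went from 0.818 to 0.855 and Cx3cr1_lo M2 macrophages from 0.810 to 0.854. The Inflammatory label (0.670 and 0.644) and the Cx3cr1_hi label (0.640 and 0.623) had slightly lower ratios at day 7. Free RNA had a ratio of 0.432 at day 2 and 0.438 at day 7, below every monocyte and macrophage label.

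**Figure D2:**
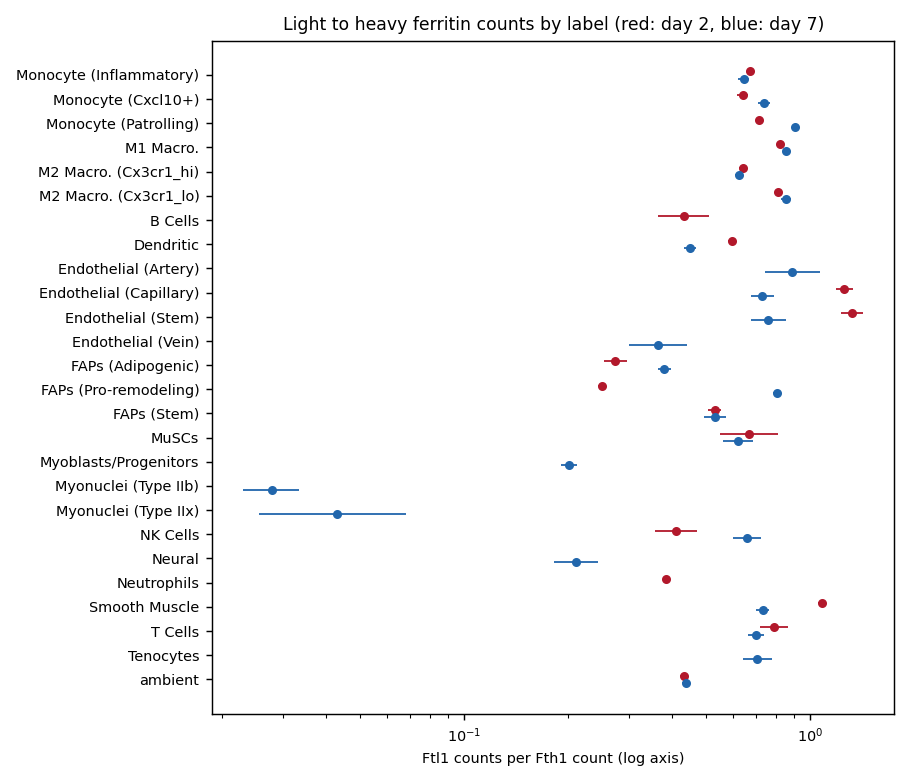
Ftl1 counts per Fth1 count (log x axis) in each label with at least 20 cells and in free RNA, at day 2 (red) and day 7 (blue), with exact 95% intervals. Monocyte and macrophage labels lie between 0.623 and 0.904, and type IIb myonuclei at 0.0278.

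The exporter Slc40a1 was barely detected in monocytes and macrophages. It summed to 3 counts at day 2 (0.182 CPM) and 38 at day 7 (5.05 CPM), a ratio of 27.8 with an interval of 8.81 to 141. The ambient level was 3.93 CPM at day 2 and 4.83 CPM at day 7, so the day 2 level was below and the day 7 level near that of free RNA. All 3 day 2 counts were in M1 macrophages. At day 7 the Patrolling label held 18 counts in 8 of 136 cells (12.6 CPM, 7.45 to 19.9), M1 macrophages and Cx3cr1_hi M2 macrophages 7 each, the Cx3cr1_lo label 5, Cxcl10+ monocytes 1 and the Inflammatory label 0. The Patrolling interval alone lay above the ambient level, though counts of the same cell are not independent, and it stood 11.6-fold above the level of 3 counts at day 2, when the label held 0 counts and the lower 95% limit of the ratio was 8.53.

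Slc40a1 was higher in other cells. At day 2 the neutrophils held 100 counts (51.3 CPM, 41.8 to 62.4) in 74 of 708 cells, and no other label held more than 3 counts. The neutrophil label also held 1150 CPM of the erythroid genes, and their part in this value was not tested. At day 7 the order ran from muscle stem cells (MuSCs, 39.9 CPM) through tenocytes (35.8 CPM) and myoblasts (19.0 CPM) to pro-remodeling FAPs, a kind of fibro-adipogenic progenitor (15.4 CPM), and no neighbours in it differed beyond counting error. In MuSCs 28 of 137 cells had a UMI and no cell more than 2. The pooled FAPs went from 3 to 104 counts, 0.584 to 12.8 CPM.

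**Figure D3:**
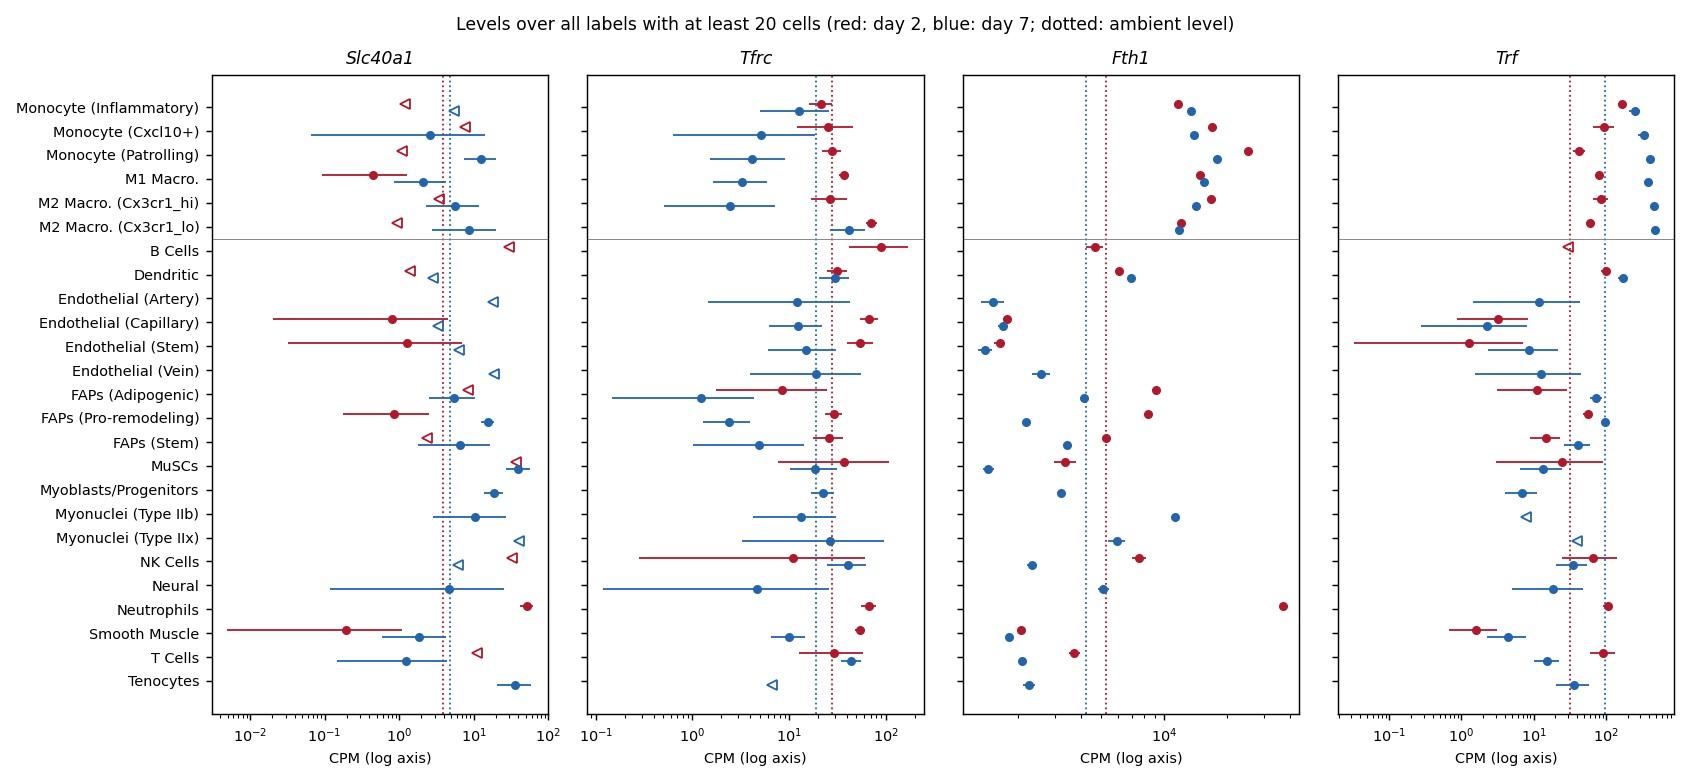
CPM (log x axes) of Slc40a1, Tfrc, Fth1 and Trf in every label with at least 20 cells, monocytes and macrophages above the grey line, at day 2 (red) and day 7 (blue) with 95% Poisson intervals, open triangles at the level of 3 counts for labels with none, and dotted ambient levels. Neutrophils at day 2 lie highest for Fth1 (36989 CPM) and Slc40a1 (51.3 CPM), and monocyte and macrophage labels at day 7 highest for Trf.

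The phagosomal transporter Slc11a1 was moderately higher at day 7. It went from 209 CPM (3442 counts) to 274 CPM (2059 counts), 1.31-fold (1.24 to 1.39), with ambient levels of 69.1 and 58.2 CPM. All labels but the Inflammatory one were higher at day 7, with Cxcl10+ monocytes past 2-fold, from 147 to 303 CPM (58 and 117 counts). The Inflammatory label was highest at day 2 and 1.61-fold lower at day 7 (1.30 to 2.01), with 280 and 174 CPM. The Cx3cr1_lo M2 macrophages, highest for Cd163, had the lowest level on both days, 130 and 166 CPM. It did not differ beyond counting error from the next label, Cxcl10+ at day 2 and Inflammatory at day 7.

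Transferrin and its receptor went in opposite directions. Trf was at 84.1 CPM at day 2 (1386 counts) and 391 CPM at day 7 (2944 counts), 4.66-fold higher (4.37 to 4.97), and the ambient level went from 31.8 to 96.0 CPM. Tfrc was at 38.9 CPM (641 counts) and 7.05 CPM (53 counts), 5.52-fold lower (4.17 to 7.45). The ambient level of Tfrc was 27.8 and 19.1 CPM, so at day 7 the cells lay below free RNA. With the 6 labels weighted equally, the log2 ratio of Tfrc was -1.60 in place of -2.46.

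Trf was higher at day 7 in each label. In Patrolling monocytes it was at 42.8 CPM at day 2, the lowest of the 6 labels, and 404 CPM at day 7, 9.42-fold higher (7.72 to 11.6). The Cx3cr1_lo M2 macrophages went from 60.9 to 485 CPM (7.96-fold), Cx3cr1_hi from 84.1 to 456 CPM (5.42-fold), M1 from 81.4 to 377 CPM (4.63-fold) and Cxcl10+ monocytes from 93.7 to 334 CPM. The Inflammatory label was highest at day 2 and lowest at day 7, with 164 and 252 CPM. The median cell had no Trf count at day 2 and was at 299 CPM at day 7.

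Tfrc was lower at day 7 in each label, beyond counting error in all but the Inflammatory one. In M1 macrophages it was at 37.2 CPM (252 counts) and 3.29 CPM (11 counts), 11.3-fold lower (6.21 to 22.9). Patrolling monocytes were at 27.7 and 4.19 CPM, 6.61-fold lower. The Cx3cr1_lo M2 macrophages had the highest level on both days, 71.3 and 41.5 CPM, 1.72-fold lower (1.13 to 2.74), and at day 7 were 3.30-fold above the next label. Cxcl10+ and Inflammatory monocytes held 10 and 54 counts at day 2 and 2 and 7 at day 7, and the Inflammatory log2 ratio was -0.77 (-2.15 to 0.37). Cell cycle genes, which often accompany Tfrc, were not lower at day 7: Mki67 was at 2.37 and 6.25 CPM and Top2a at 2.49 and 3.86 CPM, and their part in the result was not tested.

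**Figure D4:**
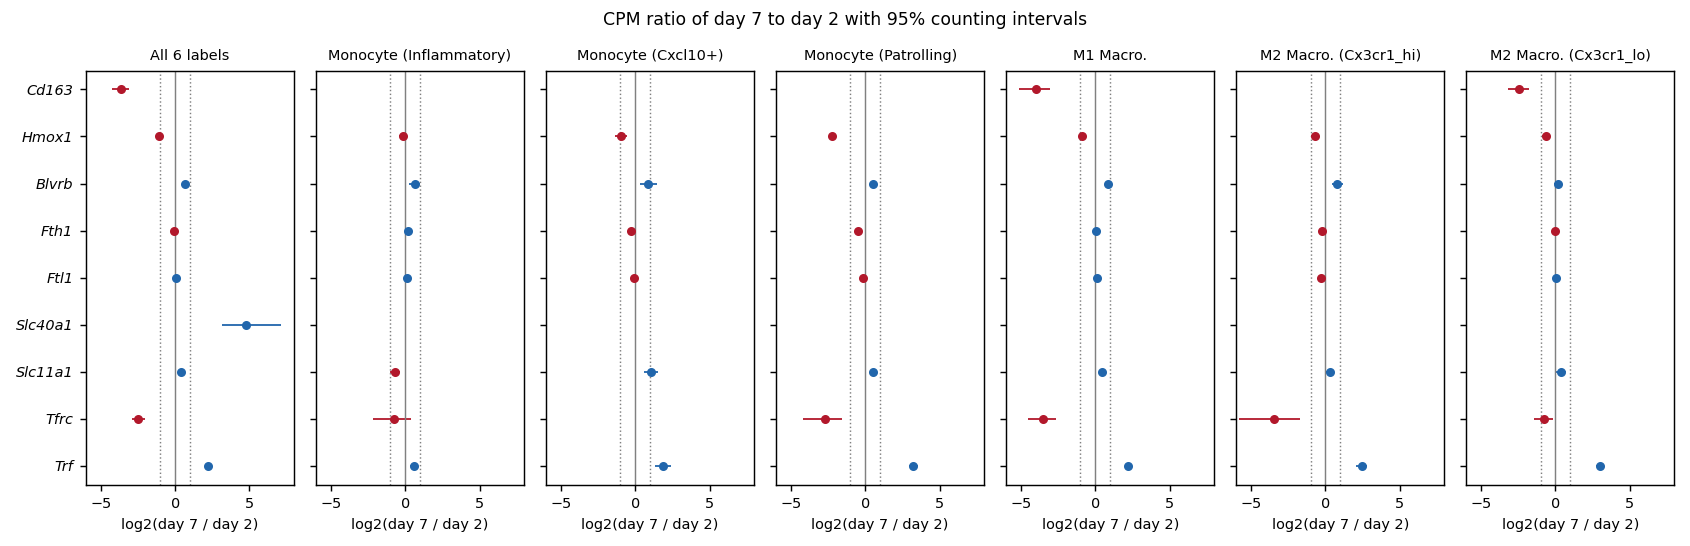
log2 ratio of CPM at day 7 to day 2 for the 9 members in the pooled cells and in each label, with exact 95% intervals; members under 20 counts are not drawn, and dotted lines mark 2-fold. Trf lies to the right and Tfrc to the left in every panel where they are drawn, and Hmox1 lies farthest left in Patrolling monocytes, at -2.21.

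Counted label by label, between 0 and 2 members passed 2-fold in each direction, of 6 to 8 members with 20 counts. In M1 macrophages, of 8 members, Trf was higher (17% of genes were) and Cd163 and Tfrc lower (14.6%). In Cx3cr1_hi M2 macrophages, of 7, Trf was higher (14.7%) and Tfrc lower (15.6%), and in Cx3cr1_lo M2 macrophages, of 8, Trf was higher (12.7%) and Cd163 lower (16.9%). In Cxcl10+ monocytes, of 6, Slc11a1 and Trf were higher (12.3%) and no member was lower (19.8%). In Inflammatory monocytes none of 7 passed in either direction (13.3% and 15.9%). In Patrolling monocytes, of 7, Trf was higher (13.8%) and Hmox1 and Tfrc lower (15.5%).

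A wider list of 55 haem and iron genes, which includes the members, held 53 genes that could be found, and 45 of these had 20 counts. Of these, 9 were at least 2-fold higher and 7 at least 2-fold lower, and the median log2 ratio was -0.13. The counts over all 45, and those of each role below, stand beside 19.3% of all genes higher and 12.8% lower. In the export list, 3 of 6 genes had enough counts and were higher, of which Slc40a1 reached the minimum through its day 7 counts (3 and 38). The others were Cp, the ferroxidase ceruloplasmin, from 1.52 to 12.4 CPM (25 and 93 counts), and Abcg2, a porphyrin and drug exporter, from 2.43 to 9.57 CPM (40 and 72 counts). All 3 were at low levels.

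In haem uptake, 2 of 4 were lower and none higher. Hp, haptoglobin, went from 146 to 10.1 CPM (log2 ratio -3.85); its complex with haemoglobin is the ligand of CD163. Lrp1, the haemopexin receptor, was at 389 and 321 CPM, and Slc48a1, which carries haem out of the phagolysosome, at 62.5 and 113 CPM. In iron uptake and transport, 2 of 10 were higher and 3 lower. Slc39a14, a zinc transporter that also carries free iron, went from 90.2 to 6.65 CPM (-3.76) and Lcn2, the siderophore-binding lipocalin, from 6.73 to 0.665 CPM (-3.34, 111 and 5 counts). Lcn2 is also a neutrophil gene: in the same cells S100a9 went from 15.3 to 0.266 CPM and S100a8 from 27.0 to 7.45 CPM, while the sum of the 5 neutrophil markers was 70.9 and 76.2 CPM, and their part in the result was not tested. Hfe, a partner of the transferrin receptor, went from 16.9 to 84.8 CPM (2.33).

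Of 11 haem synthesis genes with enough counts, Slc25a28, a mitochondrial iron carrier, was past 2-fold, from 90.3 to 34.6 CPM, and 10 were not. Of 8 regulators, 3 were higher: Keap1, the repressor of NRF2, from 26.7 to 59.7 CPM, Nr1h3, the sterol sensor LXR alpha, from 24.6 to 62.9 CPM, and Spic, a factor of red pulp macrophages, from 22 to 51 counts. Nfe2l2 (NRF2) and Bach1, known as activator and repressor of Hmox1, had log2 ratios of -0.59 and -0.66. Aco1 and Ireb2, the iron regulatory proteins, were at 19.6 and 23.1 CPM and at 19.0 and 11.7 CPM. In storage, 1 of 5 was higher, Ncoa4, the ferritin autophagy receptor, on 16 and 19 counts.

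**Figure D5:**
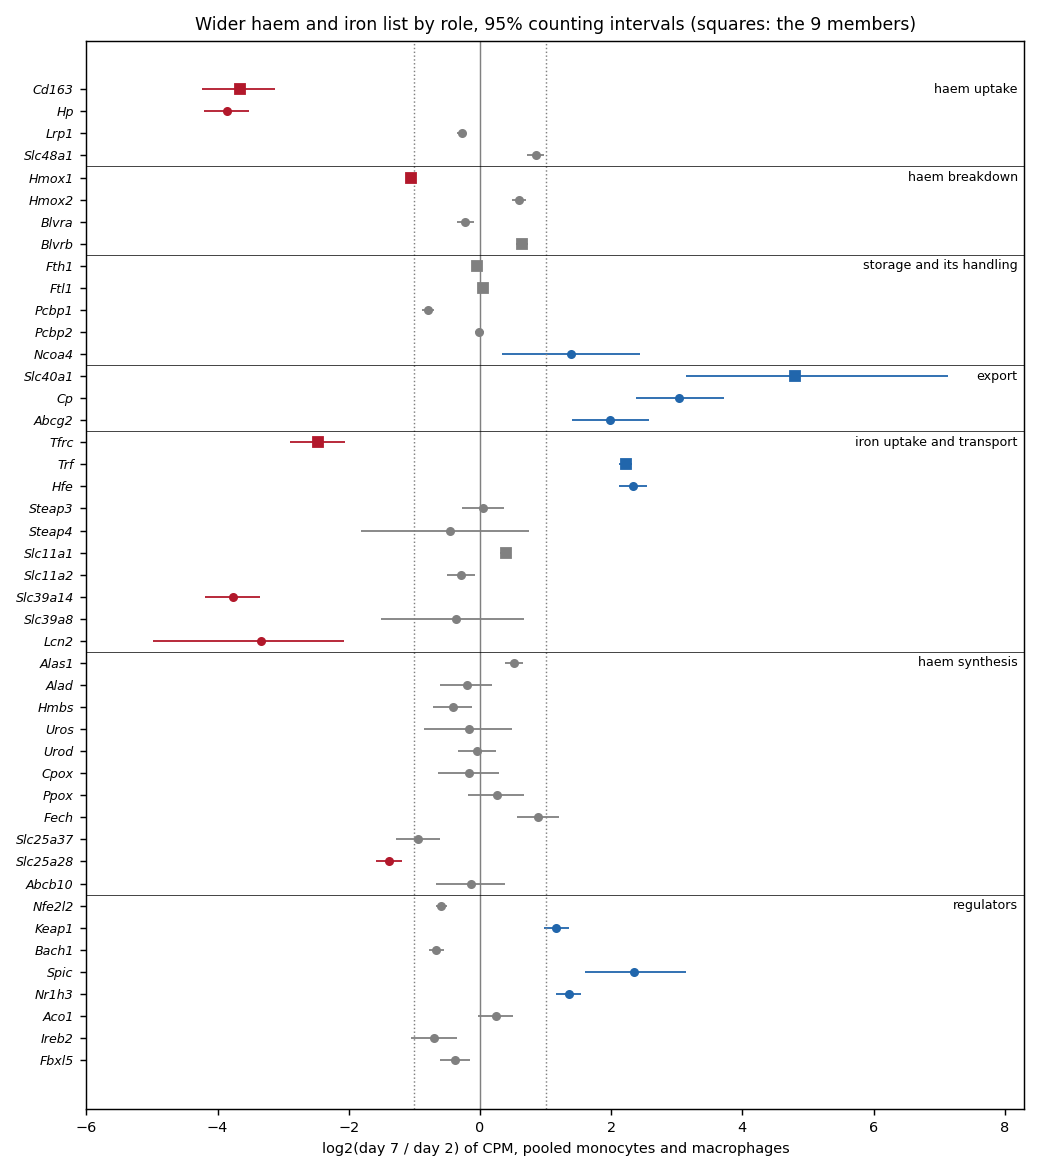
log2 ratio of day 7 to day 2 in the pooled monocytes and macrophages for the 45 genes of the wider list with at least 20 counts, grouped by role, with exact 95% intervals; squares mark the 9 members, blue and red a ratio of at least 2-fold. The 3 export genes lie right of the upper 2-fold line and 10 of the 11 haem synthesis genes lie between the lines.

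Outside the macrophages, neutrophils at day 2 had the highest Fth1 level of that day, 36989 CPM, 1.47-fold above Patrolling monocytes, and the highest Slc11a1, 365 CPM (339 to 393). Ferritin made up 5.12% of their counts, with 0.383 Ftl1 counts per Fth1 count. Their median depth was 2351 counts. The label held 30538 CPM of the neutrophil markers, 4605 CPM of the macrophage markers and 1150 CPM of the erythroid genes. The part of the latter 2 lists in its values was not tested. Neutrophils are not compared between days, because 10 of them were kept at day 7.

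In FAPs the Fth1 transcript was lower at day 7. It was at 7655 CPM in 215 cells at day 2 and 2665 CPM in 805 cells at day 7, 2.87-fold lower (2.83 to 2.92). The ambient level was 5243 and 4210 CPM, so at day 7 the cells lay below free RNA. The pro-remodeling label was 3.85-fold lower. The Adipogenic label went from 9090 to 4143 CPM and the Stem label from 5279 to 3433 CPM. Over all FAPs Ftl1 was 1.34-fold lower, and the ratio of light to heavy chain counts went from 0.300 to 0.644. The labels differed in this ratio, which went from 0.250 to 0.804 in the pro-remodeling label (138 and 495 cells), from 0.274 to 0.380 in the Adipogenic label (30 and 232 cells) and was 0.531 on both days in the Stem label (47 and 78 cells). The sum of the FAP markers, most of them matrix genes, also differed, from 10502 to 67013 CPM in the pro-remodeling label, where the myofibre genes went from 4.28 to 325 CPM. The neutrophil markers in the Adipogenic label went from 904 to 1.21 CPM, and the part of these in the result was not tested. Tfrc was 11.5-fold lower (7.11 to 19.7), from 26.9 to 2.33 CPM, and Trf 2.05-fold higher, from 42.9 to 87.7 CPM, which is close to the ambient level of 96.0 CPM. Slc40a1 and Trf were higher (25.6% of FAP genes were) and Fth1 and Tfrc lower (14%). Of these, Slc40a1 reached the count minimum only through day 7, where it was higher.

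Tfrc was also lower at day 7 in vessel cells. In smooth muscle cells Tfrc was at 54.4 CPM at day 2 (278 counts) and 9.96 CPM at day 7 (27 counts), 5.46-fold lower (3.67 to 8.44). That label held more endothelial than smooth muscle marker counts on both days (3517 and 1904 CPM at day 2, 4661 and 3947 CPM at day 7), and its erythroid sum went from 1052 to 531 CPM. In the Endothelial (Stem) label it was at 54.5 and 15.1 CPM (43 and 7 counts). Ftl1 there was 2.05-fold lower, from 2164 to 1058 CPM, and both genes were past 2-fold (13.2% of genes were lower, 13.5% higher, with no member among the latter). The ambient level of Ftl1 was 2267 and 1842 CPM, so in this label Ftl1 lay below free RNA on both days. The erythroid sum of this label went from 202 to 856 CPM, and the part of these marker differences in the vessel cell values was not tested. In the Endothelial (Capillary) label, whose leading genes included Hba-a1 and Hba-a2, Tfrc was at 67.9 and 12.4 CPM. Its erythroid sum went from 3056 to 1078 CPM. The myofibre sum went from 62.3 to 1546 CPM in this label, from 36.8 to 464 CPM in Endothelial (Stem) and from 24.7 to 326 CPM in smooth muscle cells. The part of these was not tested. At day 7 Tfrc lay below its ambient level of 19.1 CPM in these vessel labels. Dendritic cells had 31.7 and 29.8 CPM of Tfrc (log2 ratio -0.09, -0.75 to 0.55). The cells labelled T Cells were at 29.4 CPM at day 2, when the mast cell and basophil genes Mcpt4, Mcpt8 and Cpa3 led the label, and at 44.3 CPM at day 7, when Cd3g, Cd3d and Cd3e led it, so no comparison is made.

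Dendritic cells, whose leading genes were Cd209a, Klrd1 and Cd7 at day 2 and Siglech, Ccr9 and Cd209a at day 7, had little of the haem breakdown genes. Hmox1 was at 14.9 CPM (32 counts) at day 2 and 32.7 CPM (34 counts) at day 7, below the ambient level on both days. Blvrb was at 17.7 and 42.3 CPM, also below it. Type IIb myonuclei at day 7 had 11289 CPM of Fth1 with 314 CPM of Ftl1, 0.0278 light chain counts per heavy chain count, and no Hmox1 or Trf count in 76 cells.

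The genes whose pattern over the 41 label and day sums was most like that of a member are given for 3 members, by Pearson r of log2(CPM + 10) among 10679 genes. The sums share libraries and the labels were made from all genes. For Cd163 they were Tmem8 (r = 0.74), Cbr2 (0.73), Ccl24 (0.65), Ap1b1 (0.65) and Nxpe5 (0.63), each highest in day 2 Cx3cr1_lo M2 macrophages. For Hmox1 they were Atp6v1b2 (0.89), the member Ftl1 (0.88), Cstb (0.87), Plin2 (0.86) and Lgmn (0.86). For Slc40a1 they were Dtx4 (0.72), Rab15 (0.71), C1qtnf3 (0.70), Msc (0.68) and Egr2 (0.67), which were highest in MuSCs, myoblasts or neutrophils.

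The 9 promoters of 6 members in RefSeq (GRCm38.p6, 250 bases before to 50 after the start) held no antioxidant response core, TGACNNNGC, on either strand, against 12.4% of 32851 promoters, and no promoter of Hmox1, Slc40a1 or Trf was searched.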

How the data were processed

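Muscle cells of 2 mice, 1 at each day, were profiled on the 10x Chromium v3 platform. The values used are the UMI counts of each barcode, whole numbers that the authors deposited after mapping to mm10. The file headers name Cell Ranger 3.0.1 and the submitters' processing notes 3.1.0, with Seurat 3.1.5. A second deposited matrix holds expected counts after the authors subtracted free RNA with SoupX; it served as an alternative, unrounded. A deposited table gives each barcode its cell type, from clusters of a larger integrated collection, after the authors removed putative doublets. No doublet caller was run here.

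Labelled cells of the table were kept if their SoupX values reached 750 genes and 1000 transcripts and did not pass 30% mitochondrial transcripts. Counts were summed per label and library and scaled to the total (CPM). Total counts were 41123913 at day 2 and 32356088 at day 7. Groups came from the injury label. There were no tests: Poisson, Clopper-Pearson and conditional binomial 95% intervals (scipy 1.17.1, numpy 2.4.6, Python 3.11.15) cover counting error only. A ratio counted from 2-fold with 20 counts over both libraries, and counts under 3 were taken as 3. Scripts were tested on simulated Poisson counts, drawn for both days from a shared profile of the pooled monocytes and macrophages, with 11336 genes in use. Of the genes set to change 4-fold, 100% were recovered, and 1.27% of unchanged genes passed. The simulation held no variation between mice, between cells or in label mix. The 1.27% therefore covers counting error only and is not a false-call rate of the real data. The members and lists were chosen with earlier results of these data known. Named genes were the members, wider-list genes past 2-fold with at least 100 counts, and the 5 genes most like Cd163, Hmox1 and Slc40a1; others are named to account for their role. The wider list included Flvcr1 and Flvcr2, which were not found under these symbols. Alternatives changed the scaling, limits, ambient correction, thresholds and cells.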

Additional observations from a re-analysis of the deposited data

Results flagged for a closer look

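The day 7 to day 2 ratio of Hmox1 was past 2-fold in opposite directions in 2 classes, with a log2 ratio of -1.06 in monocytes and macrophages and 1.13 in dendritic cells, where both levels were below that of free RNA. The dendritic label was led by Cd209a, Klrd1 and Cd7 at day 2 and by Siglech and Ccr9, genes of plasmacytoid dendritic cells, at day 7. This difference was not tested.

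Called barcodes outside the annotation table that met the same limits, 680 at day 2 and 477 at day 7, carried member counts, which free RNA also carries. Hmox1 was at 214 CPM at day 2 and 60.6 CPM at day 7, and Blvrb at 96.4 and 79.1 CPM. Ferritin was at 9844 and 4181 CPM for Fth1 and at 5459 and 2674 CPM for Ftl1. Trf was at 59.3 and 92.1 CPM, Tfrc at 52.1 and 32.1 CPM and Slc11a1 at 92.0 and 59.9 CPM. Slc40a1 was at 0.699 and 4.64 CPM. Cd163 was at 19.1 CPM at day 2 and had 2 counts at day 7. At day 2 Slc40a1 lay below its ambient level (3.93 CPM) and the other members above theirs. At day 7 Hmox1, Fth1, Trf, Slc40a1 and Cd163 lay below their ambient levels (77.3, 4210, 96.0, 4.83 and 1.21 CPM). Slc11a1, Blvrb, Ftl1 and Tfrc lay above theirs (58.2, 55.4, 1842 and 19.1 CPM).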

How the results depend on the processing

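No paired analysis was possible because each day has 1 library. The numbers of members past 2-fold stayed within 1.5 times the reported counts in 12 alternatives each, a limit that the loss or gain of a member could stay within. Hmox1 dropped out with the mean over cells, with labels weighted equally and at 4-fold, and Blvrb joined the higher members at 1.5-fold. Cd163, Tfrc, Trf and Slc40a1 stayed past 2-fold in 10 of 10 alternatives of their ratio. Hmox1 did so in 8 of 10. Of 90 alternative member ratios, 64 lay within the counting interval of the reported ratio and 26 did not, and no ratio past 2-fold changed sign. Of the wider list, 5 genes were higher at 4-fold, 12 lower at 1.5-fold and 11 lower as counts per cell, an alternative chosen after seeing the data that lowers the median of all genes to -0.38. The share of cells with a Cd163 UMI was 11.7% at day 2 and 2.64% at day 7 without thinning, 1.71% and 0.133% for at least 2 UMIs, and 6.51% at day 2 when thinned to 4000. The Ftl1 to Fth1 ratio was 0.711 at day 2 and 0.775 at day 7 with labels weighted equally, 0.786 at day 7 without possible doublets, and 0.765 at day 2 without cells holding an erythroid count. For all of these the cause was not tested beyond what each alternative changes by construction. Levels lay within their counting intervals in 1405 alternatives and outside in 143. Over all genes, 39.1% were higher and 9.02% lower of 16674 with no count minimum, and 12.8% and 13.6% of 8847 with at least 100 counts, where the member Slc40a1 drops out. Depth limits Slc40a1 and, at day 7, Cd163 and Tfrc, and 1 library a day leaves variation between mice unmeasured.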
